A study of Mus musculus with 10 samples.

Results

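The regions described here were narrow stretches of the mouse genome that gave strong CUT&RUN signal in every one of 3 IKZF2 antibody libraries. CUT&RUN cuts and releases DNA beside an antibody-bound protein, so reads pile up where that protein, or something close to it, sits on chromatin. The cells were RN2, a C57BL/6 mouse leukaemia line driven by the MLL-AF9 fusion with NRASG12D, which had received a retrovirus carrying murine IKZF2 and RFP, were sorted, and were then kept in culture for 2 weeks; all libraries shared this background. Each of the 3 IKZF2 antibody libraries had 2 technical replicates, which gives the 6 samples used; 4 further samples, 2 rabbit control antibody libraries with 2 technical replicates each, were not analysed here. All values below therefore stand without a measured control background. For each of 151133 deposited regions, the read counts of both technical replicates of a library were summed and expressed as CPM (a count scaled to the library's total over all regions) per kb of region. A region belonged to the set if it lay on an autosome outside chr4 3 to 60 Mb, was at most 300 bp wide, and reached the 90th percentile of all regions in each of the 3 libraries. These criteria kept 826 regions, 0.547% of all deposited regions, out of 139869 that met the width and chromosome criteria. The members were thus chosen by their measured CPM per kb in these same libraries, so their height is given as a description with no test.

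IKZF2, also called Helios, is a zinc finger protein of the Ikaros family. Proteins of this family recognise short DNA elements with a TGGGAA core and recruit chromatin complexes such as NuRD and Sin3, and in blood cells they take part in lineage choice. Promoters, the stretches just before a gene's transcription start, bind general factors such as SP and KLF proteins (GC boxes), NF-Y (CCAAT boxes) and ETS proteins in most cell types.

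Most of these regions sat at genes: 462 of 826 (55.9%; 95% Wilson interval from 52.5 to 59.3%) were at most 1 kb from an end of a protein-coding gene. Which end was known for 380 of them, and 368 of these were at the start. Sequence could be read for the 271 members that fell wholly inside a RefSeq promoter window (250 bases before to 50 after a gene's start, GRCm38.p6). The following 11 are strong members at gene starts, members at genes of the listed pathways, and the Lmf1 member, which was steady over libraries. They include promoters with several exact matches to the strings searched for and promoters with no such match. They are written 5′ to 3′ in the direction of the gene, with coordinates as deposited (mm10). Capitals mark matches, on either strand, to TGGGAA (Ikaros family core), GGGCGG (SP and KLF), CCAAT (NF-Y), CCGGAAG (ETS), CACGTG (E box), TGACGTCA (CRE), TCTCGCGA (CGCG element), GCGCATGCG (NRF1), AAGATGGCG (YY1), ACTACAA (ZNF143) and CCACGCCC (a KLF-like string described further on).
Psmd12, chr11:107479356-107479446, + strand: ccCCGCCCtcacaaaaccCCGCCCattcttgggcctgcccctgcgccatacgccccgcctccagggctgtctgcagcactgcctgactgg
Fgd2, chr17:29360832-29360935, + strand: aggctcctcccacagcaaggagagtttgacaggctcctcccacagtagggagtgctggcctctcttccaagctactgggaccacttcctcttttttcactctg
A930018P22Rik, chr2:104122658-104122761, + strand: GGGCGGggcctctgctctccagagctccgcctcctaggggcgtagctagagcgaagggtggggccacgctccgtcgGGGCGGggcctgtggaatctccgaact
Sin3b, chr8:72723188-72723289, + strand: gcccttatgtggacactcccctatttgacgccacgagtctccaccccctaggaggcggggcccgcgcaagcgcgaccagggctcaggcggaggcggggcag
Cox7a1, chr7:30184042-30184159, + strand: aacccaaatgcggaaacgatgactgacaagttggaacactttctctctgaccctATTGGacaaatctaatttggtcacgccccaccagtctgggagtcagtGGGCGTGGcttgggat
Atp5g1, chr11:96075634-96075746, - strand: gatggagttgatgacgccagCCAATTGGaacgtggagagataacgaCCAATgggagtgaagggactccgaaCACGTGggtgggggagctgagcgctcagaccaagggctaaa
Rps9, chr7:3703895-3704007, + strand: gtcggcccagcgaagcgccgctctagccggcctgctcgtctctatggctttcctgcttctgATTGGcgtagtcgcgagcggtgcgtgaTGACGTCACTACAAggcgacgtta
Rps6, chr4:86857371-86857468, - strand: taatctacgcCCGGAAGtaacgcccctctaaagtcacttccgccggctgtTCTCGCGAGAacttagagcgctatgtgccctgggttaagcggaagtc
Cd68, chr11:69666181-69666302, - strand: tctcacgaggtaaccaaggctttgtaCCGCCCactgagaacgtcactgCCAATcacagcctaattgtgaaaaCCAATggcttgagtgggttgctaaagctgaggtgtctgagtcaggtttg
Stat2, chr10:128270396-128270514, + strand: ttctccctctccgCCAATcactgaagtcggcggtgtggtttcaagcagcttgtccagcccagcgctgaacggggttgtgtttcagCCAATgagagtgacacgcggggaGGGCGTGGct
Lmf1, chr17:25579036-25579168, + strand: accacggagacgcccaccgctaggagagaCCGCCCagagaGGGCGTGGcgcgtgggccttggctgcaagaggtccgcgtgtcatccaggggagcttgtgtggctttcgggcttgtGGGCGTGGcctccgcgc

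The Psmd12 region held a pair of GGGCGG matches, written here as their reverse complement, and the A930018P22Rik region held them on the forward strand near both of its ends. The Sin3b and Fgd2 regions, both among the 10 strongest members near a gene end, held no exact match to the searched strings. Other elements were not marked, and the Sin3b region did hold the GC-rich string GGCGGGGC. The Cd68 region combined 1 GGGCGG with a pair of CCAAT matches. The Stat2 region held a pair of CCAAT matches and 1 CCACGCCC. The Atp5g1 region held CCAAT on both strands, overlapping at 1 place, and an E box. In the Rps9 region a CRE and the ZNF143 string overlapped. The Rps6 region held the CGCG element and, apart from it, an ETS match. None of the 11 shown held TGGGAA.

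The 3 libraries differed in depth and in how high the members stood. Reads in regions came to 1675237, 1570251 and 2081455 in libraries 1, 2 and 3, and the 90th percentile lay at 88.8, 91.0 and 84.5 CPM per kb. The members' median value was 123 CPM per kb in library 1 (88.9 to 1417), 140 in library 2 (91.0 to 4325) and 115 in library 3 (84.6 to 1114). A median member rested on 27, 29 and 32 reads in libraries 1, 2 and 3, and the weakest on 14, 13 and 16. Many counts in technical replicate 1 were even, such as 104, 316 and 100 at the highest member, and the reads were paired-end. Both reads of a fragment may have been counted, so members may rest on fewer fragments than reads. This was not tested. The members' mean over libraries had a median of 130 CPM per kb, against 49.5 over all deposited regions. Library 2 gave the highest value for 436 members (52.8%), library 1 for 221 and library 3 for 169. The standard deviation over libraries was 20.2% of the mean for the median member; it was under 10% for 150 members and over 50% for 34. The labels do not tie the libraries to different cultures, so this spread may be technical.

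**Figure D1:**
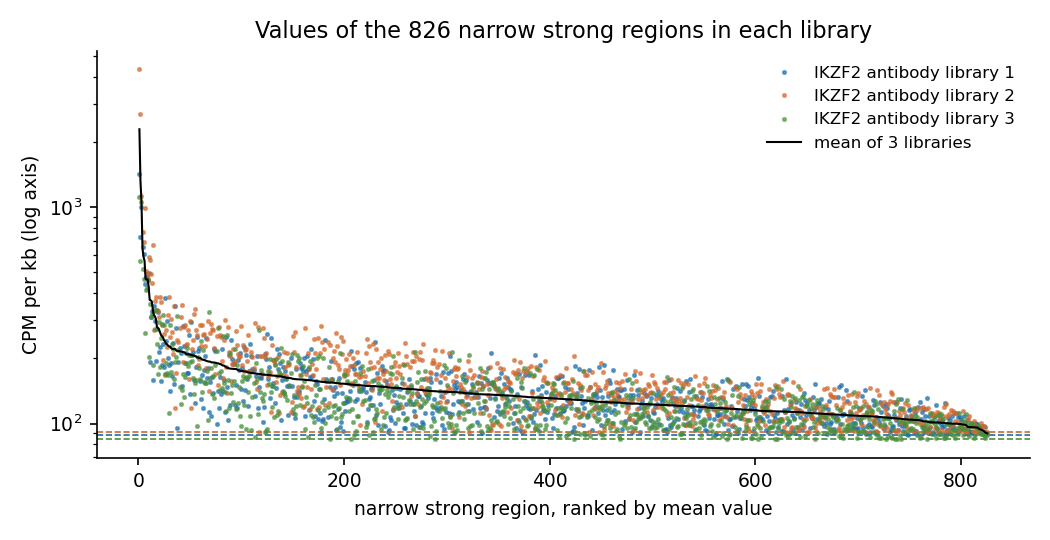
Value of each of the 826 narrow strong regions in each IKZF2 antibody library (points, CPM per kb on a log axis), ranked by the mean of 3 libraries (black line); dashed lines mark each library's 90th percentile. A short steep head of 17 regions has means above 300 CPM per kb, and the rest descend slowly towards the 90th percentile lines.

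The strongest members stood apart from the rest in level and mostly lay away from genes. Only 17 members had a mean above 300 CPM per kb, and 3 of these were near a gene end (at most 1 kb away, the meaning of near throughout); of the 43 between 200 and 300, 20 were. The highest was chr6:10186388-10186479, outside genes and 936769 bp from the 3′ end of Nxph1, with 1417, 4325 and 1114 CPM per kb in libraries 1, 2 and 3 (2285 ± 1773, SD, n = 3). Next came chr6:132463719-132463819, 99585 bp from the start of Gm8882, with 728, 2675 and 562 CPM per kb. In both, library 2 was more than 2 times as high as either other library. By contrast chr18:73533432-73533540, 39097 bp from Mex3c, held nearly level at 995, 1120 and 1059 CPM per kb. The region chr16:77946898-77947014, 354212 bp from Cxadr, gave 654, 763 and 518 CPM per kb.

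The remaining members among the 10 highest were also mostly outside genes. The region chr19:61267007-61267125, 38546 bp from the start of Csf2ra, the alpha chain of the GM-CSF receptor, had a mean of 587 ± 115 CPM per kb (SD, n = 3). The region 8055 bp from Olfr854, an odorant receptor, had 441, 990 and 261 CPM per kb. Those nearest Zfp945 (a zinc finger protein, 9108 bp) and Ifna13 (a type I interferon, 2376 bp) were steadier, both at a mean of 464 with SDs of 45.0 and 35.4, and the one 54654 bp from Cacna1e, a calcium channel subunit, had 493, 588 and 204. Without library 2 the means of the Nxph1, Gm8882 and Olfr854 regions fell to 1265, 645 and 351 CPM per kb. Taco1, which helps translate cytochrome oxidase I in mitochondria, was the only gene with one of these 10 near an end: chr11:106066771-106066875, inside the gene 714 bp from its start, held 459, 465 and 462 CPM per kb. When the members were split into 4 equal groups by their mean, 49.8% of the highest group lay near a gene end, against 58.3%, 58.7% and 57.0% of the other groups. Places outside genes and over 50 kb from any gene end made up 10.6% of the highest group and 3.88 to 6.31% of the others.

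Apart from Taco1, the 10 highest members near gene ends stood below the 10 highest of all, and their genes were diverse. This did not hold for the typical member. The median of the members' means was 129 CPM per kb near a gene end and 127 elsewhere inside genes. Outside genes it was 135 up to 50 kb away and 134 farther. After Taco1, the highest member near a gene end was at Psmd12, a subunit of the proteasome's regulatory lid. Its region, 82 bp before the start, had 192, 566 and 358 CPM per kb (372 ± 187, SD, n = 3). The region chr1:171150577-171150673 at an end of Sdhc, a membrane anchor of succinate dehydrogenase, had 311, 491 and 310 CPM per kb. Library 2 was the highest at both genes. At Sipa1, a GTPase-activating protein for Rap1, chr19:5663666-5663769 overlapped the start and had 272, 334 and 233 CPM per kb. At Fgd2, an exchange factor for Cdc42, the values were 214, 309 and 294. The A930018P22Rik region had 185, 284 and 289 CPM per kb. At Sin3b, a scaffold of the Sin3 corepressor complex, they were 142, 252 and 285 (226 ± 75.2, SD, n = 3). The others of the 10 lay at Wdr55, Degs1 (a ceramide-forming desaturase) and Napg (a membrane fusion adaptor), with means of 239, 233 and 232 CPM per kb. At Wdr55 library 1, at 380, was more than 2 times as high as the others, at 168 and 169.

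A few members were almost the same height in each library. The steadiest, chr12:105539794-105539886, 23286 bp from the start of Bdkrb2, had 104 CPM per kb in each library, with an SD of 0.357. At Lmf1, a lipase maturation factor, the values were 131, 130 and 131, and at Aplp2 and Cep85 the SDs were 0.548 and 0.719 CPM per kb around means of 110 and 113. The steadiest region rested on 16, 15 and 20 reads. At the other end, the largest relative spread outside the regions already named was at chr11:25100084-25100208, 926526 bp from Bcl11a, with 159, 668 and 186 CPM per kb, and at chr11:102481950-102482061 in Gpatch8, with 91.4, 281 and 95.2. Library 2 was again the high one in both, and without it their means were 172 and 93.3. Close to the limit, 166 members stood within 5% above it and 177 regions missed it by less than 5%. Just inside, the region at Psme2, a proteasome activator subunit, had 124, 91.0 and 121 CPM per kb, and just outside, the region at Eaf2 had 96.9, 154 and 84.3.

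The share of regions near gene ends rose with the number of libraries in which a region was strong. It was 5.45% of the 101642 narrow autosomal regions strong in no library, 8.38% of 35155 strong in 1, 41.1% of 2246 strong in 2, and 55.9% of the members. The 71 wider autosomal regions strong in all 3 libraries had 80.3%. These shares are descriptions, since regions of the same libraries are not replicates and no test was made. Among members near an end whose side was known, 96.8% lay at the start, against 62.7% of regions strong in no library. Of the other members, 188 (22.8%) lay elsewhere inside a gene, 120 (14.5%) outside genes up to 50 kb away, and 56 (6.78%) farther. Exons and introns were not told apart in the annotation used. Wider members lay near gene ends more often, with 49.2% at 90 to 99 bp and 67.4% at 200 to 300 bp, and the same order held over all eligible regions (5.03% and 15.1%). By chromosome, members made up from 0.268% (chr6) to 0.934% (chr11) of eligible regions.

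**Figure D2:**
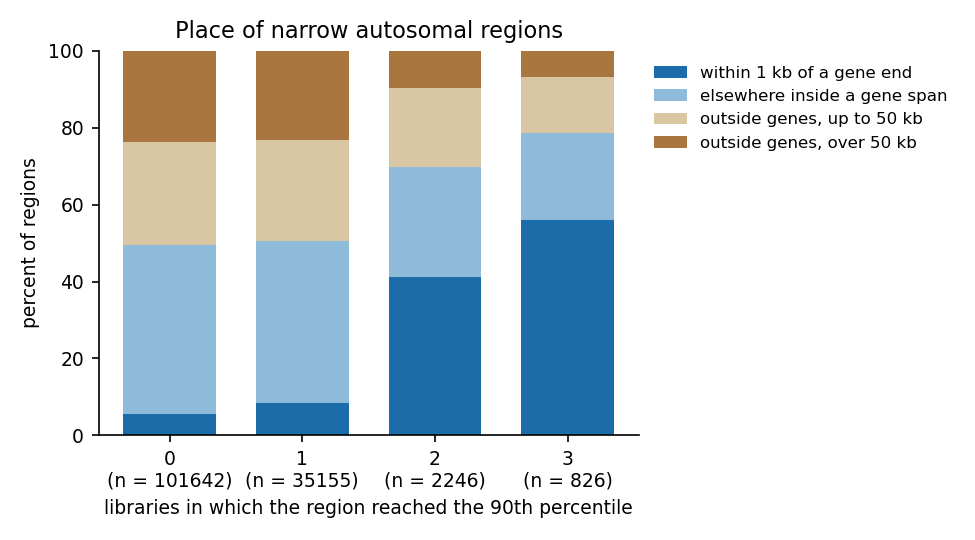
Percent of narrow autosomal regions in each of 4 places (stacked bars), by the number of libraries in which the region reached the 90th percentile. The part within 1 kb of a gene end grows from 5.45% at 0 libraries to 55.9% at 3, while the part outside genes over 50 kb away shrinks to 6.78%.

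The result depended on the technical replicate that chose the regions. Applying the same criteria to technical replicate 2 alone gave 738 regions, 615 of them members, with 59.1% near a gene end. Technical replicate 1 alone, which held 15.7 to 17.9% of each library's reads, gave 266 regions, of which 102 were members, and 19.9% lay near a gene end. Leaving out library 1, 2 or 3 and asking for strength in the others gave 1689, 1338 and 1697 regions, with 49.8%, 49.1% and 47.8% near a gene end.

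At transcription starts the members were placed tightly. Of the 805 members on chromosomes with start positions, 376 (46.7%) lay within 250 bp of a start, against 3.62% of all eligible narrow regions. Within 1 kb of a start there were 421 members, and 242 of these (57.5%) overlapped the start itself. The median position of their middle was -48.5 bp from the start (interquartile range -91.5 to -16 bp, minus meaning upstream), and 347 (82.4%) had their middle upstream. For 301 (71.5%) the middle was within 100 bp of the start, against 25.8% of the 4439 regions strong in no library that lay within 1 kb of one. Regions strong in 2 libraries were placed much like the members, with 65.2% within 100 bp. Starts on both strands lay within 500 bp for 68 of the 376 members near a start (18.1%) and for 665 of the 4515 other narrow regions near one (14.7%). Of the 376, 43 were over 1 kb from any outer end of a protein-coding gene. The start positions also included those of genes that do not code for protein, so these 43 need not be starts inside genes.

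**Figure D3:**
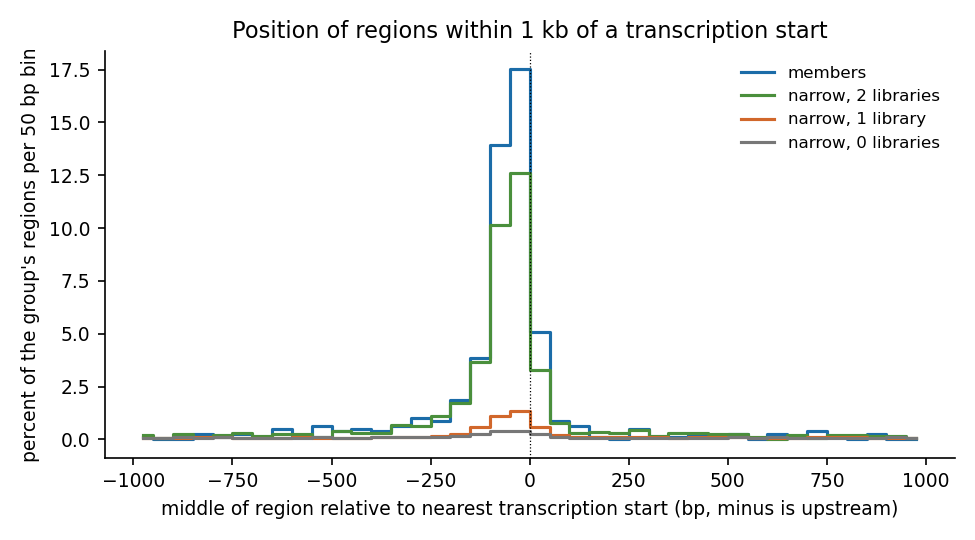
Middle of each region relative to the nearest transcription start (50 bp bins; minus is upstream), as a percent of all regions of the group with a start position. The members peak in the bin from -50 to 0 bp, with 17.5% of the group, and in the bin before it, with 13.9%; regions strong in no library reach 0.413% in any bin.

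Some members lay in close pairs. There were 9 pairs with a gap under 1 kb, some at promoters and some away from gene ends. At Atp5g1, subunit c of ATP synthase, a gap of 246 bp separated regions of 153 and 176 CPM per kb; at Arrdc2 the gap was 256 bp (179 and 155), and at B9d2, a transition zone protein of cilia, 264 bp (107 and 166). The closest pair lay 9279 bp from Rdm1, with 143 and 110 CPM per kb. Pairs nearest Gm7827, Tex14 and Gdi2 also lay away from gene ends, at 23094, 66445 and 131178 bp for the nearer member.

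The genes with a member near an end numbered 534, or 2.58% of 20661 autosomal protein-coding genes. Lists of genes for this cell type and for common cell functions were read against that share, with counts too small for a statement about any list. Among 25 genes of MLL-AF9 leukaemia and self-renewal, Men1, whose protein menin tethers MLL fusions to chromatin, was the only one; its region chr19:6334837-6335050 overlapped the start and had 112, 167 and 111 CPM per kb. Of 26 myeloid differentiation genes only Cd68, a lysosomal membrane protein of macrophages, had one, with 197, 195 and 107 CPM per kb. Of 25 genes of the Ikaros family, NuRD and Sin3 complexes, Sin3b was the only one, and the Ikaros family genes themselves had none.

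Among 19 interferon and NF-kB signalling genes, Stat2 (91.1, 162 and 147 CPM per kb) and Stat3 (177, 181 and 154), transcription factors downstream of cytokine receptors, had a member. For 17 p53 and apoptosis genes it was Trp53, through a region nearer to the divergent neighbour Wrap53. That region overlapped an annotated Wrap53 transcription start, with its middle at -106 bp, and lay 786 bp from an outer end of Wrap53. None of 19 genes of non-blood tissues had one. All of the 3 proteasome genes among 39, Psmd12, Psmd7 and Psmc4, encode parts of the regulatory particle; Psmd7 had 95.7, 234 and 104 CPM per kb and Psmc4 126, 106 and 85.2.

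Mitochondrial and ribosomal genes were the longest lists. Of 106 respiratory chain genes, 5 (4.72%) had one: Sdhc, Uqcrh and Uqcrq of complexes II and III, Cox7a1 of cytochrome oxidase, and Atp5g1. Cox7a1 had 117, 256 and 218 CPM per kb, and Uqcrh, near the limit, 89.9, 123 and 87.8. Of 80 cytosolic ribosomal protein genes, 3 (3.75%) had one: Rps9 was level at 160, 165 and 163 CPM per kb, Rps6 had 123, 158 and 139, and the region near Rpl3l overlapped an end of its neighbour Msrb1. Of 78 mitochondrial ribosomal protein genes, 3 (3.85%) had one: Mrpl28, Mrps26 and Mrpl43, the last sharing its region with Twnk, the mitochondrial helicase. These 3 lists had a narrow region of any strength more often than all genes (66.0%, 65.0% and 59.0%, against 41.2%). Among genes with such a region, 7.14%, 5.77% and 6.52% had a member, against 6.28% over all genes.

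The sequences of the 271 members wholly inside a promoter window were compared with those of narrow regions strong in 2, 1 and 0 libraries in the same windows (540, 962 and 927 regions). Median GC content was 63.8% in the members and 62.1% in regions strong in no library. GGGCGG was present in 64.9% of the members (176 of 271, Wilson 59.1 to 70.4%), 59.3%, 56.1% and 47.1% of the regions strong in 2, 1 and 0 libraries. CCAAT followed the same order with 38.7%, 34.8%, 33.2% and 29.6%. CCGGAAG was found in 19.9% and 20.2% of the members and the regions strong in 2 libraries, and in 14.7% of those strong in none. The Ikaros family core TGGGAA was found in 10.7% of the members (29 of 271, Wilson 7.55 to 14.9%), 12.0%, 10.8% and 12.4%. Median width was 114 bp in the members and 131 bp in regions strong in no library. The shares are not matched for width. At 90 to 109 bp TGGGAA stood in 8.93% of the members and 7.53% of regions strong in none. At 110 to 139 bp it stood in 5% and 11.1%, and at 140 to 300 bp in 18.99% and 16.4%. The order of members and regions strong in none thus differed between width classes. At 5 or 6 letters, such strings are short enough to occur often: TGGGAA stood in 25.3% and GGGCGG in 35.9% of all 30879 promoter windows of 300 bases. In the 448 windows that touched a member, TGGGAA stood in 25.4%, GGGCGG in 72.5% and CCAAT in 51.8% (37.3% of all windows). The remaining strings stood in under 6% of the members. None of the 10 strings was present in 26 of the 271. With each region widened by 50 bp on either side, GGGCGG was found in 61.4% of the 88 members still inside a window, and in 66.7%, 63.8% and 53.5% of the regions strong in 2, 1 and 0 libraries, so the order did not hold. For CCAAT the widened shares were 48.9% in the members and 44.1%, 35.9% and 41.5% in the regions strong in 2, 1 and 0 libraries. Its order did not hold either.

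**Figure D4:**
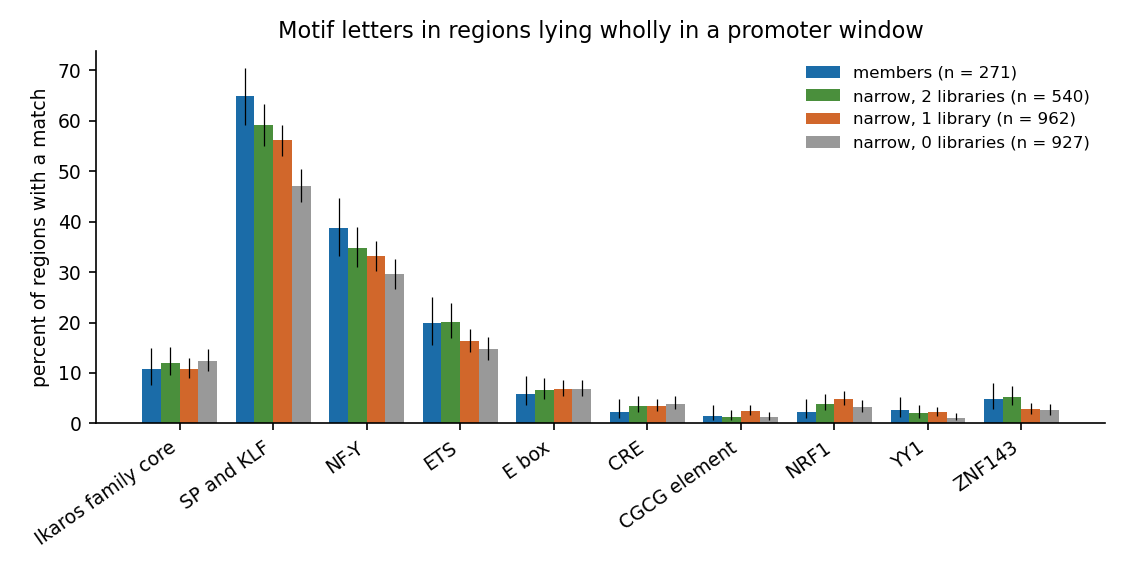
Percent of regions wholly inside a promoter window that hold each of 10 short strings on either strand (bars, with 95% Wilson intervals), for members and for narrow regions strong in 2, 1 and 0 libraries. GGGCGG is found in 64.9% of the members and 47.1% of regions strong in no library; the Ikaros family core in 10.7% and 12.4%.

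Base composition moved with the shares of GGGCGG and CCAAT. Among regions of 70% GC or more it was 82.5% in the members and 85.0% in regions strong in no library; at 60 to 70% GC it was 71.0% and 60.6%, and below 60% GC it was 42.9% and 15.9%. For CCAAT the members stood above regions strong in no library below 60% GC (66.7% and 27.3%) but below them at 60 to 70% GC (34.7% and 37.0%) and at 70% GC or more (9.52% and 23.8%). Over all 31596 strings of 8 letters, each counted with its reverse complement, the one with the largest difference in share was CCACGCCC, which contains no GGGCGG on either strand and resembles the CACCC element of KLF proteins. It was found in 17.7% of the members (48 of 271), and in 13.3%, 10.1% and 6.15% of regions strong in 2, 1 and 0 libraries. The order of members above regions strong in none held in each width and GC class: 25.4% and 10.6% at 70% GC or more, 19.4% and 8.75% at 60 to 70%, and 9.52% and 1.74% below. At 140 to 300 bp the string stood in 16.5% of the members and 17.4% of regions strong in 2 libraries. In the other width and GC classes the members stood above regions strong in 2 libraries. This string was picked for its difference in these same regions, after all had been counted. Its order within classes of these regions is therefore no separate support, and no test is given.

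At some members the technical replicates gave different pictures. In all 3 libraries technical replicate 2 held most reads (1375495, 1296355 and 1755015, against 299742, 273896 and 326440). A median member had 4 reads in technical replicate 1 in each library, and 22 to 26.5 in technical replicate 2. Of the 826 members, 352, 384 and 312 reached the 90th percentile of technical replicate 1 of libraries 1, 2 and 3, and 726, 745 and 730 that of technical replicate 2. Only 54 did so in all 6 samples. The clearest contrast was chr16:77946898-77947014, where technical replicate 1 gave 124, 136 and 100 reads, and the much deeper technical replicate 2 gave 3, 3 and 25. Scaled to each technical replicate's own total, its mean was 3496 CPM per kb in technical replicate 1 and 53.9 in technical replicate 2. The region 54654 bp from Cacna1e gave 2150 and 68.1, so both were members through technical replicate 1. The Psmd12 region was the reverse, with 27.0 CPM per kb in technical replicate 1 and 442 in technical replicate 2. The highest member of all, 936769 bp from Nxph1, was high in both (6619 and 1383), as was the Taco1 region (1311 and 285).

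Technical replicate 2 was compared with 1 by edgeR's quasi-likelihood test with library as a block. The criteria for members did not use this difference, but they used the sum of both technical replicates, so a region very high in one could enter through it alone, and the calls among members are given as a description. Over all 9743 regions that passed a filter on low counts, 49 (0.503%) had an adjusted p under 0.05, 41 (0.421%) higher in technical replicate 1 and 8 (0.0821%) higher in 2. Of the members, 720 passed the filter and 26 of these (3.61%) were called, 25 higher in technical replicate 1 and 1, Psmd12, higher in 2. Without the filter, 46 of all 151133 regions (0.0304%) were called, 31 (0.0205%) higher in technical replicate 1; 21 of the 826 members were among them, 20 higher in technical replicate 1. Of the members that passed the filter, 65 reached its level in all libraries only in technical replicate 1 and 319 only in technical replicate 2, so no share among them is read as a result. Without library 2 no region was called of 20751 tested (803 had an unadjusted p under 0.05; among members 0 of 736, with 97 unadjusted). Without library 1, 23 of 14407 regions were called, 15 of them among the 719 members tested, and without library 3 the counts were 17 of 17301 and 11 of 739.

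Of the 25 members called higher in technical replicate 1, the Taco1 region was the only one near a gene end and 7 more lay elsewhere inside a gene. Outside genes, 7 lay up to 50 kb and 10 over 50 kb from a gene end. With those inside genes included, 12 lay over 50 kb from any gene end. Of the 720 members tested, 408 were near a gene end. A region very high in technical replicate 1 could become a member through it alone, so these places are a description. The places of called regions that were not members were not counted. Of the 17 members with a mean above 300 CPM per kb, 10 were called; that mean includes the technical replicate 1 reads that the comparison uses. For the median member, technical replicate 1 contributed 14.4% of the reads near a gene end and 19.2% over 50 kb away outside genes, against 16.9% of the reads of all regions. Pooled over reads, which a few deep regions dominate, these shares were 14.8% and 37.5%. None of the 462 members near a gene end had 50% or more of its reads in technical replicate 1, against 9 of the 56 members over 50 kb away. Leaving aside the 26 called members, 460 of 800 (57.5%) were near a gene end.

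**Figure D5:**
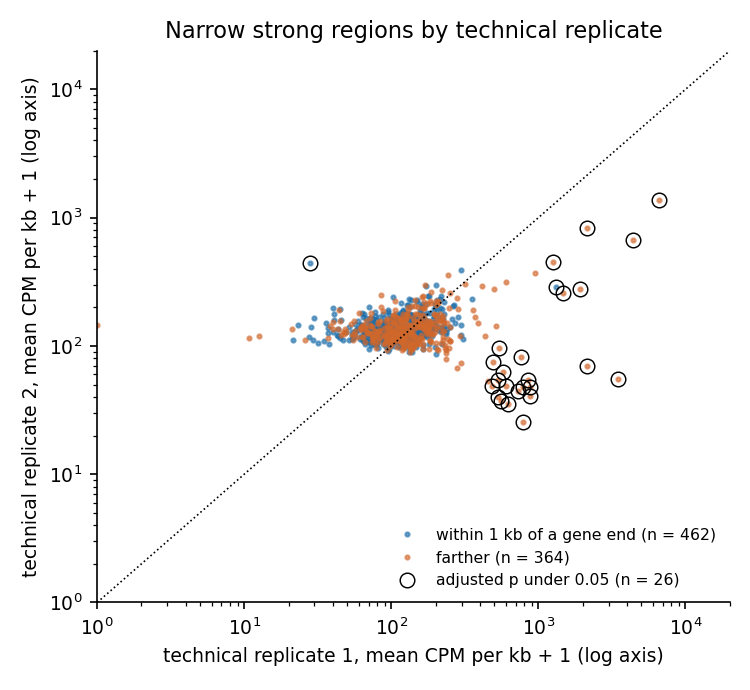
Mean value over 3 libraries of each narrow strong region in technical replicate 1 (x) and 2 (y), as CPM per kb + 1 on log axes; the dotted line marks equal values and circles mark the 26 regions with an adjusted p under 0.05. The 25 called regions higher in technical replicate 1 form a group to the right of the line, and 24 of them are farther than 1 kb from a gene end. These places are a description, since a region could become a member through technical replicate 1 alone.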

How the data were processed

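CUT&RUN libraries made with an anti-IKZF2 antibody were read from a deposited table per sample, which gives integer read counts over one shared set of regions on mm10; per the labels' protocols the reads were paired-end. The submitters' processing notes name Bowtie2 2.3.3.1 and MACS2; their settings, and whether starts count from 0 or 1, are unstated in these sources, so a distance may be off by 1 bp. From the deposited counts, CPM per kb was computed on the total over all regions, which is not sequencing depth. A pile of reads in a short region gives a high value per kb, and Wilson intervals cover counting error only. Gene spans (21883 protein-coding genes) and 32851 promoter windows came from RefSeq GRCm38.p6; no chr18 promoter window was used. Technical replicates were compared with edgeR 4.0.16 (TMM, quasi-likelihood, library as a block, Benjamini-Hochberg adjustment) and DESeq2 1.42.0; scripts were tested on simulated data. Alternatives changed the width, percentile, scaling, samples, window and filter.

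The members and gene lists were chosen with earlier results of these data known. Named regions were the 10 highest overall and the 10 highest near gene ends, the 5 lowest and highest in relative spread, up to 5 nearest the limit on each side, up to 5 called in each direction, pairs within 1 kb, and members at listed genes; some are given only by their group.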

Additional observations from a re-analysis of the deposited data

How the results depend on the processing

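The number of regions, 826 as reported, was 453 at the 95th percentile, 2156 with CPM not divided by width (564 shared), and 266 with technical replicate 1 alone; leaving out a library gave 1338 to 1697. A width limit of 200 or 400 bp, the percentile taken over narrow regions, the width plus 100 bp and technical replicate 2 alone kept it within 1.5 times. The share near a gene end, 55.9%, was 49.8% with CPM not divided by width, 19.9% with technical replicate 1 alone, 67.9% within 5 kb and 48.9% within 250 bp (19.7% and 3.71% of eligible regions), and 47.8 to 49.8% without a library; the other settings stayed inside its interval, as did leaving aside the called regions, added after the data were seen. The causes were not tested. Between technical replicates, 49 regions (26 members) were called, and 0 to 23 (0 to 15) when a library was left out; without the replicate block 41 (23) were called, with DESeq2 51 (25), and with total reads as library size 66 (29). Of 43 named regions, 11 had a mean over 1.5 times higher in technical replicate 1 alone and 8 a mean under 1/1.5 of the reported one; without library 2, 5 fell that far. Widening the region by 50 bp left 88 members inside a window, of which 17.0% held TGGGAA and 61.4% held GGGCGG. The latter then stood in 66.7%, 63.8% and 53.5% of regions strong in 2, 1 and 0 libraries, and TGGGAA in 22.0%, 15.9% and 15.8%. With 27 to 32 reads in a median member, differences between libraries at single regions are limited by counting.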
